A study of Mus musculus with 22 samples.

Results

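The genes described here are 10 genes of autophagy and the lysosome, Ulk1, Becn1, Atg5, Atg7, Map1lc3b, Gabarapl1, Sqstm1, Tfeb, Lamp1 and Ctsd. Each had 1 entry among the 32858 genes of the mouse kidney count table (positions below are on GRCm38). All 10 passed the filter on low counts, which 17131 genes passed.

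Autophagy encloses part of the cytoplasm in a membrane, the autophagosome, and delivers it to the lysosome, where acid hydrolases digest it. The ULK1 kinase complex and a lipid kinase complex that holds Beclin 1 start the membrane, a conjugation machinery that includes ATG7 and ATG5 attaches proteins of the LC3 and GABARAP family to it, and receptors such as p62 bring ubiquitinated cargo. TFEB is a transcription factor of lysosomal and autophagy genes, and proximal tubule cells of the kidney, which reabsorb filtered protein and take up cisplatin, depend on both compartments.

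Kidney RNA of 22 male C57Bl6/J mice, 8 to 10 weeks old, was sequenced to learn how KW6002 (istradefylline), an antagonist of the adenosine receptor encoded by Adora2a, changes the response of the kidney to cisplatin, a platinum drug that injures tubules. The vehicle group (n = 5) received the carrier of DMSO, cremophor and saline, and the KW6002 group (n = 6) received KW6002 in that carrier at 3 mg/kg each day from day -5 to day 7. The cisplatin group (n = 5) received 6 daily intraperitoneal injections of 3 mg/kg cisplatin in saline from day 0, and the co-treated group (n = 6) received both drugs on these schedules. Kidneys were taken 72 hours after the last cisplatin injection. The libraries held between 26471762 and 40510754 counts, and the group medians were 31739661 (vehicle), 30199812.5 (KW6002), 34311202 (cisplatin) and 31604187 (co-treated). Levels are given as CPM, the counts of a gene scaled to a common library total, after TMM scaling, which sets libraries on a common scale by a trimmed mean of gene ratios. Fold changes came from 1 edgeR quasi-likelihood fit to the 22 libraries, and a gene passed the test at a Benjamini-Hochberg adjusted p below 0.05 over all genes tested. The library names carry numbers in the 300s (3 vehicle and 3 KW6002 mice, replicates 1 to 3 of each) or in the 500s (the other 16). The labels do not say what the numbers stand for, and all cisplatin-treated mice are in the 500s. Cisplatin against vehicle is therefore also given within the 500s, where the vehicle group is 2 mice, replicates 4 and 5, for each member and, as a choice made after the data were seen, for the pathway and marker lists. The doses and days above follow the text of the series, and the results text of the paper and the legend of its main kidney RNA-Seq figure also name the subchronic schedule. A later legend describes kidney RNA-Seq samples as from mice that carried LLC1 tumours, and whether it refers to these 22 libraries was not settled.

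The tissue label was checked against marker genes. All 9 proximal tubule markers and all 4 markers of the thick ascending limb were detected, with Slc34a1 and Umod the most abundant, and the muscle gene Myh4 had no row in the table. The summed proximal tubule markers measured 22724, 22092, 22392, 22689.6 and 21552 CPM in the vehicle kidneys, and 2132, 2831, 2477, 2656 and 3835 CPM in the cisplatin kidneys. Co-treated kidneys ran from 7945 to 12107 CPM with a median of 8356 CPM, and KW6002 kidneys from 20993 to 22559 CPM with a median of 21608 CPM. These markers fell in 9 of 9 genes with cisplatin (median log2 fold change -3.17), and 8 of 9 were higher in co-treated than in cisplatin kidneys (median 2.15). The 4 tubular injury genes (most abundant Lcn2) summed to 23.1, 16.8, 17.2, 20.99 and 19.4 CPM with vehicle, and to 2423, 2253, 2305, 2155 and 1288 CPM with cisplatin. Co-treated kidneys held 352 to 752 CPM of these genes, with a median of 547 CPM, and KW6002 kidneys 18.5 to 36.8 CPM. All 4 rose with cisplatin, and 3 of them (Havcr1, Lcn2 and Krt20, named after their values were seen) had lower levels in co-treated than in cisplatin kidneys. Of the thick ascending limb markers, 4 of 4 fell with cisplatin (summed level 4723 to 7829 CPM with vehicle, 2036 to 2367 CPM with cisplatin and 2399 to 4313 CPM with co-treatment), and of 6 intercalated cell markers (most abundant Atp6v1b1) 4 fell (443 to 508 CPM, 213 to 291 CPM and 308 to 396 CPM). Within the 500s the same proximal tubule, thick ascending limb and injury markers passed with cisplatin, and 3 intercalated cell markers. In bulk kidney RNA, fewer cells of a type and less RNA per cell cannot be told apart, and the part of such shifts in the values that follow was not tested.

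Promoters of 4 members are shown because Ctsd, Gabarapl1 and Sqstm1 had the largest fold changes with cisplatin or with co-treatment against cisplatin, and Lamp1 carries 4 matches to the core of the TFEB motif. RefSeq promoter windows (GRCm38.p6, 250 bases before to 50 after a start site) matched 9 of the 10 members, with 11 windows, 3 of them for Tfeb. Becn1 had none. Capitals mark CACGTG, the core of the motif TFEB is known to bind, its longer form TCACGTGA, which contains it, and TGACNNNGC, the core of the antioxidant response element. Both strands were searched. Sequences run 5′ to 3′ on the strand of the gene, for Ctsd at chr7:142387778-142388077 (minus strand), Lamp1 at chr8:13158911-13159210 (plus strand), Gabarapl1 at chr6:129532942-129533241 (plus strand) and Sqstm1 at chr11:50210771-50211070 (minus strand).
Ctsd: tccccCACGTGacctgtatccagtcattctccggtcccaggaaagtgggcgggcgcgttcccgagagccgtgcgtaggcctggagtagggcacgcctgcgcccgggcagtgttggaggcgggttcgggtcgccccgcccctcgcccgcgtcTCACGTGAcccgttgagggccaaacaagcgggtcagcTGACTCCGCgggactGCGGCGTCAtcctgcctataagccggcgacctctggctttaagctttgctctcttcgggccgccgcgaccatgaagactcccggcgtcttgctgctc
Lamp1: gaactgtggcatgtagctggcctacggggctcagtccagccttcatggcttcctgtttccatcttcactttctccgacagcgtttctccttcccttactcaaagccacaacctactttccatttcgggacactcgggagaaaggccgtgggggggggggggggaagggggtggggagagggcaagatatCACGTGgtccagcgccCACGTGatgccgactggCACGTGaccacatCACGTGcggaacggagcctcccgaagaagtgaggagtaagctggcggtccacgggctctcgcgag
Gabarapl1: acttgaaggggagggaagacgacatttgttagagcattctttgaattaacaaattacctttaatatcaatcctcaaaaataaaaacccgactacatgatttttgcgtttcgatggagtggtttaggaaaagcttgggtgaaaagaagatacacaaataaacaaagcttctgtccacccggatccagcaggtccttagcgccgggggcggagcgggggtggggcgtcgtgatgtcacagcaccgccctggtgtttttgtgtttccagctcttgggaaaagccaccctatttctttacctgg
Sqstm1: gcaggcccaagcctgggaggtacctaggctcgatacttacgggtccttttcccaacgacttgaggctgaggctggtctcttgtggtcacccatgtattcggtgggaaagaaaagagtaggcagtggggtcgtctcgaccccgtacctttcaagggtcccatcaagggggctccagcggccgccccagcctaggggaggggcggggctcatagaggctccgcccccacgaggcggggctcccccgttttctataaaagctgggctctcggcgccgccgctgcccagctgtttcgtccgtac
CACGTG was present in windows of 4 members (Atg5, Atg7, Lamp1 and Ctsd), against 8.09% of all 27025 genes with a window (7.15% of all 32851 windows of this length). Counting the base before the start site as -1, its first base lay at -61, -45, -28 and -15 in Lamp1, at -245 and -98 in Ctsd, at -14 in Atg5 and at -132 in Atg7. TCACGTGA was found in Ctsd only among the members, and in 304 of the 27025 genes (0.974% of all windows). TGACNNNGC was found in Ctsd (-62 and -47) and Map1lc3b (5), and in 3781 of the 27025 genes (12.4% of all windows). The matches describe these letters only.

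Ordered by level per length in vehicle kidneys (mean CPM per kb of exon), Gabarapl1 at 540.0 ± 65.0 (SD, n = 5) and Lamp1 at 438 ± 11.5 stood above Ctsd at 175 ± 28.2 and Sqstm1 at 172 ± 11.03. The levels per kb of Ctsd and Sqstm1 did not differ beyond their spread. The other 6 lay lower, with Becn1 at 18.5 ± 0.745, Atg5 at 15.4 ± 0.930, Map1lc3b at 12.9 ± 1.21, Ulk1 at 12.6 ± 1.10, Tfeb at 4.29 ± 0.285 and Atg7 at 3.46 ± 0.219 CPM per kb. Map1lc3b and Ulk1 did not differ in level per kb beyond their spread.

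**Figure D1:**
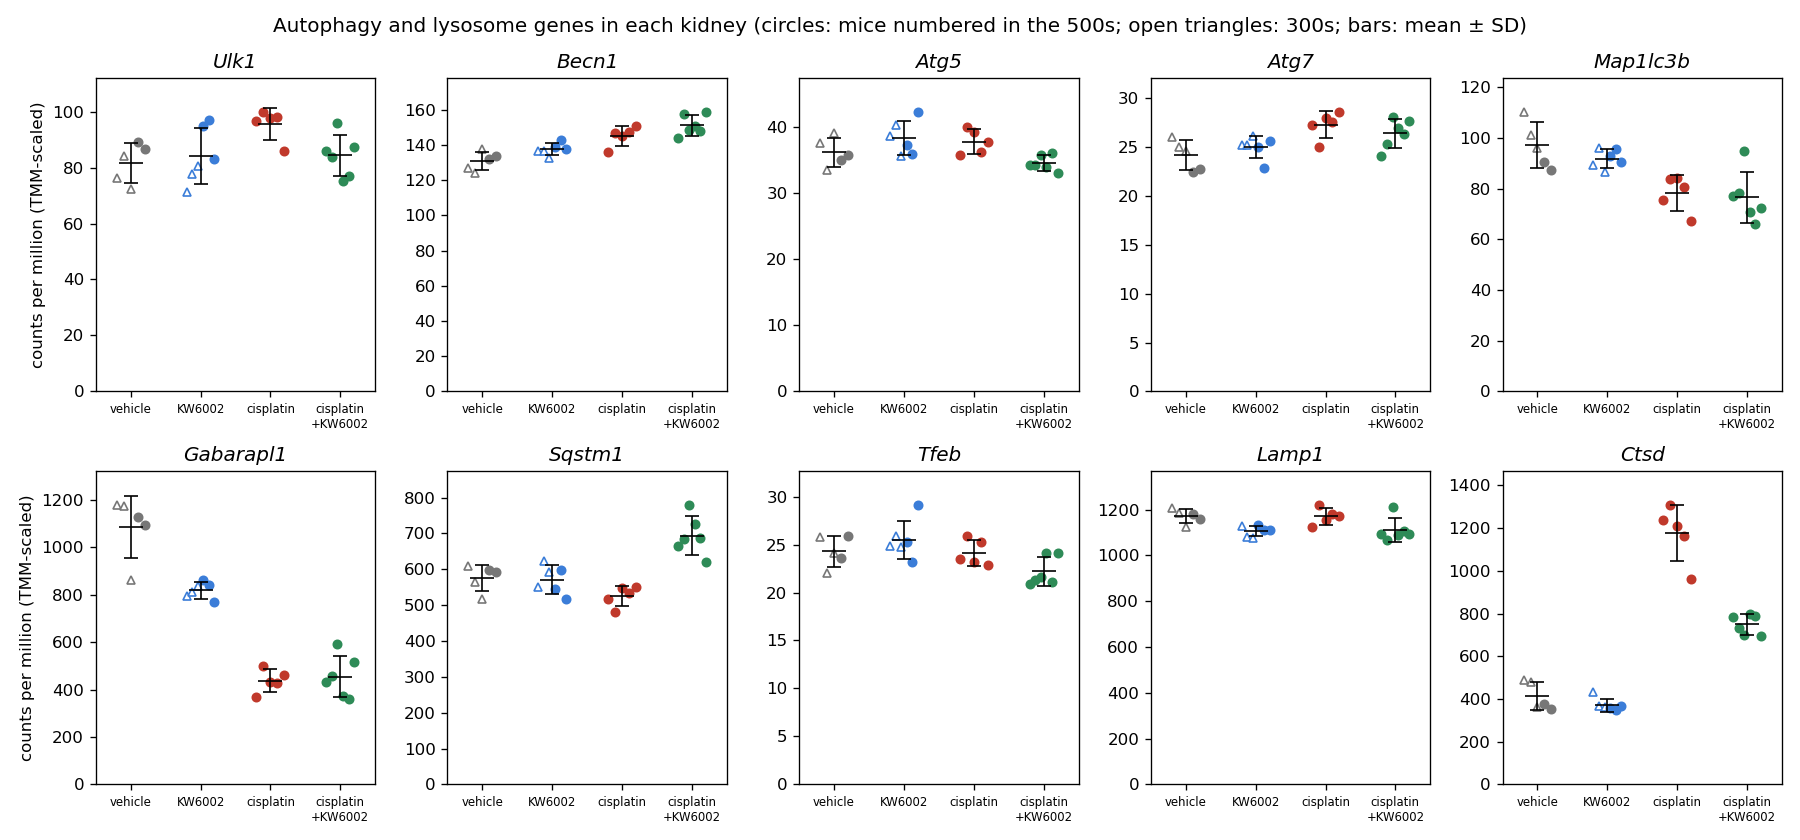
TMM-scaled CPM of the 10 genes in each of the 22 kidneys, by group, with the group mean ± SD; circles are mice numbered in the 500s and open triangles mice numbered in the 300s. Ctsd lies between 963 and 1308 CPM in the cisplatin kidneys and between 354 and 491 CPM in the vehicle kidneys.

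Cisplatin against vehicle asks what the drug does to the pathway. Of the 10 members, 4 were higher (Ulk1, Becn1, Atg7 and Ctsd), against 34.6% of all genes tested, and 2 were lower (Map1lc3b and Gabarapl1), against 35.9%. Under a stricter rule, which asks for an adjusted p below 0.01 together with a change of more than 1 on the log2 scale, 2 of 10 passed (Gabarapl1 lower, Ctsd higher), against 24.1% of all genes in either direction. The median log2 fold change was 0.03 over the members and -0.01 over all genes. When libraries were scaled only by their size, the median over all genes was 0.20 (0.16 for co-treated against vehicle kidneys), and 7 members were then higher, against 47.6% of all genes, and 1 lower, against 24.8%. These are mRNA levels, which do not measure the flow of material through the pathway. Within the 500s, 2 members were higher (Atg7 and Ctsd), against 31.4% of the 17761 genes tested there, and 1 lower (Gabarapl1), against 31.7%.

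Ulk1 (ENSMUSG00000029512, chr5:110784488-110810097, minus strand) encodes the kinase that starts autophagosome formation. It measured 76.2, 84.0, 72.3, 89.1 and 86.6 CPM in the vehicle kidneys and 96.6, 99.9, 97.9, 98.1 and 85.8 CPM in the cisplatin kidneys. Cisplatin replicate 5 was the only one of its group within the vehicle range. The log2 fold change was 0.23 (SE 0.08, adjusted p = 0.0154), or 0.45 when scaled by library size alone (adjusted p = 2.1e-05). The 3 vehicle mice of the 300s include the lowest values, and within the 500s the log2 fold change was 0.12 (adjusted p = 0.253). Between the number series 1 of 10 members differed, Ulk1, by -0.23 on the log2 scale (300s minus 500s, adjusted p = 0.0204), against 11.5% of all genes tested, and the cisplatin difference of Ulk1 did not pass within the 500s, with the number series as a covariate (0.10, adjusted p = 0.265) or without vehicle replicate 3 (0.19, adjusted p = 0.0534). Co-treated kidneys ran from 75.4 to 96.0 CPM with a median of 85.0 CPM, overlapping the cisplatin kidneys, and the difference of -0.18 on the log2 scale (SE 0.08, adjusted p = 0.0494, or -0.18 and 0.0222 within the 500s) did not pass with no filter on low counts (-0.17, adjusted p = 0.087) or with a replicate block (-0.185, adjusted p = 0.0763). Nor did it pass without cisplatin replicate 1, 2, 3 or 4, any co-treated replicate but 3, any vehicle replicate but 3, or KW6002 replicate 2, 3 or 6. Leaving out each of the 22 libraries in turn gave -0.22 to -0.15 and an adjusted p of 0.0194 to 0.113.

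Becn1 (ENSMUSG00000035086, chr11:101285952-101302286, minus strand) encodes Beclin 1, the scaffold of the lipid kinase complex. Its vehicle kidneys measured 127, 124, 137, 132 and 134 CPM and its cisplatin kidneys 136, 147, 145, 147 and 151 CPM. Only cisplatin replicate 1 fell within the vehicle range. Becn1 differed by 0.15 on the log2 scale (SE 0.04, adjusted p = 0.00239), and within the 500s it was 0.12 (adjusted p = 0.073). Scaled by library size alone, the difference was 0.37 (adjusted p = 4.8e-09). With co-treatment Becn1 ran from 144 to 159 CPM, all above the vehicle range, and differed from cisplatin kidneys by a log2 fold change of 0.06 (SE 0.04, adjusted p = 0.204). An opposite-strand gene, Cntd1, shares 43.9% of the Becn1 exon bases. Whether the counting used strand is not stated, and the effect of the overlap on the Becn1 counts was not tested.

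Atg7 (ENSMUSG00000030314, chr6:114643097-114860614, plus strand) encodes the activating enzyme of the conjugation reactions, and Atg5 (ENSMUSG00000038160, chr10:44268358-44364291, plus strand) a part of the conjugate that directs LC3 to the membrane. Atg7 measured 26.0, 24.9, 24.6, 22.4 and 22.7 CPM with vehicle and 27.3, 25.0, 28.0, 27.5 and 28.6 CPM with cisplatin. Cisplatin replicate 2 was the only one within the vehicle range. The log2 fold change of Atg7 was 0.18 (SE 0.05, adjusted p = 0.00629), or 0.27 within the 500s (adjusted p = 0.00425). When scaled by library size alone it was 0.39 (adjusted p = 2.0e-06). Atg5 measured 37.5, 33.4, 39.0, 35.0 and 35.7 CPM with vehicle and 35.7, 40.0, 39.2, 36.1 and 37.6 CPM with cisplatin. The groups overlapped, with a log2 fold change of 0.06 (SE 0.05, adjusted p = 0.298), or 0.09 within the 500s (adjusted p = 0.260). Atg5 was lower in co-treated kidneys (33.1 to 36.1 CPM, median 34.2 CPM) than in cisplatin kidneys, by -0.13 on the log2 scale (SE 0.05, adjusted p = 0.0326, or -0.12 and 0.0359 within the 500s), with overlap between the groups. This did not pass without cisplatin replicate 2 (-0.11, adjusted p = 0.0987) or 3 (-0.11, adjusted p = 0.0804), without co-treated replicate 1, 2, 4 or 6 (adjusted p 0.0507 to 0.0563) or with no filter on low counts (-0.12, adjusted p = 0.115). Scaled by library size alone, Atg5 was higher with cisplatin than with vehicle, by 0.28 on the log2 scale (adjusted p = 8.7e-05).

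Gabarapl1 (ENSMUSG00000030161, chr6:129533160-129542346, plus strand) encodes a GABARAP protein that is coupled to lipid in the autophagosome membrane. It measured 1179, 1173, 861, 1129 and 1093 CPM in the vehicle kidneys and 368, 501, 433, 426 and 461 CPM in the cisplatin kidneys. Every cisplatin kidney lay below every vehicle kidney, and vehicle replicate 3 stood below the other vehicle kidneys. The log2 fold change was -1.31 (SE 0.11, adjusted p = 6.2e-10), and -1.35 within the 500s (adjusted p = 3.1e-07). Co-treated kidneys ran from 359 to 591 CPM with a median of 445 CPM, spanning the cisplatin range, and the log2 fold change against cisplatin was 0.05 (SE 0.11, adjusted p = 0.687). In KW6002 kidneys Gabarapl1 ran from 768 to 862 CPM with a median of 823 CPM, and vehicle replicate 3 alone of the vehicle kidneys reached this range. The opposite-strand transcript 1700101I11Rik shares 28.3% of its exon bases. Gabarapl1 and the proximal tubule markers were both lower with cisplatin, but the marker sum was higher in co-treated than in cisplatin kidneys while the Gabarapl1 ranges of these groups overlapped, and the part of the markers was not tested.

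Map1lc3b (ENSMUSG00000031812, chr8:121590361-121598760, plus strand) encodes LC3B, the protein most used to mark autophagosomes. It measured 110.2, 101, 95.8, 90.5 and 87.3 CPM with vehicle and 75.3, 83.8, 84.3, 80.5 and 67.2 CPM with cisplatin. All 5 cisplatin kidneys were below all 5 vehicle kidneys. Map1lc3b differed by -0.31 on the log2 scale (SE 0.08, adjusted p = 0.00167), while within the 500s it was -0.19 (adjusted p = 0.130) and when scaled by library size alone -0.09 (adjusted p = 0.306). With co-treatment Map1lc3b ran from 66.2 to 94.7 CPM with a median of 74.6 CPM, and the log2 fold change against cisplatin was -0.03 (SE 0.08, adjusted p = 0.747).

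Of the 3 paralogs that were not members, 1 fell, against 35.9% of all genes. Gabarap fell with cisplatin (log2 fold change -0.31, SE 0.05, adjusted p = 1.6e-05) and was higher in co-treated than in cisplatin kidneys (0.42, SE 0.05, adjusted p = 3.7e-07), without overlap between groups in either comparison, but scaled by library size alone no paralog was lower and 2 were higher with cisplatin. Map1lc3a and Gabarapl2 did not pass with cisplatin, at log2 fold changes of 0.07 (SE 0.08, adjusted p = 0.450) and 0.11 (SE 0.08, adjusted p = 0.195). Per kb of exon, Gabarapl1 held 69.7% ± 2.51 (SD, n = 5) of the summed level of the 5 genes in vehicle kidneys, 63.9% ± 1.93 (SD, n = 6) with KW6002, 51.7% ± 2.39 (SD, n = 5) with cisplatin and 47.6% ± 4.51 (SD, n = 6) with co-treatment. Gabarap held 21.1% ± 2.17, 24.9% ± 1.35, 31.3% ± 1.84 and 37.4% ± 4.27 of the summed level per kb in the same order of groups. The sum itself was 773 ± 69.0 CPM per kb with vehicle, 636 ± 15.7 with KW6002, 419.9 ± 29.8 with cisplatin and 472 ± 47.9 with co-treatment.

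**Figure D2:**
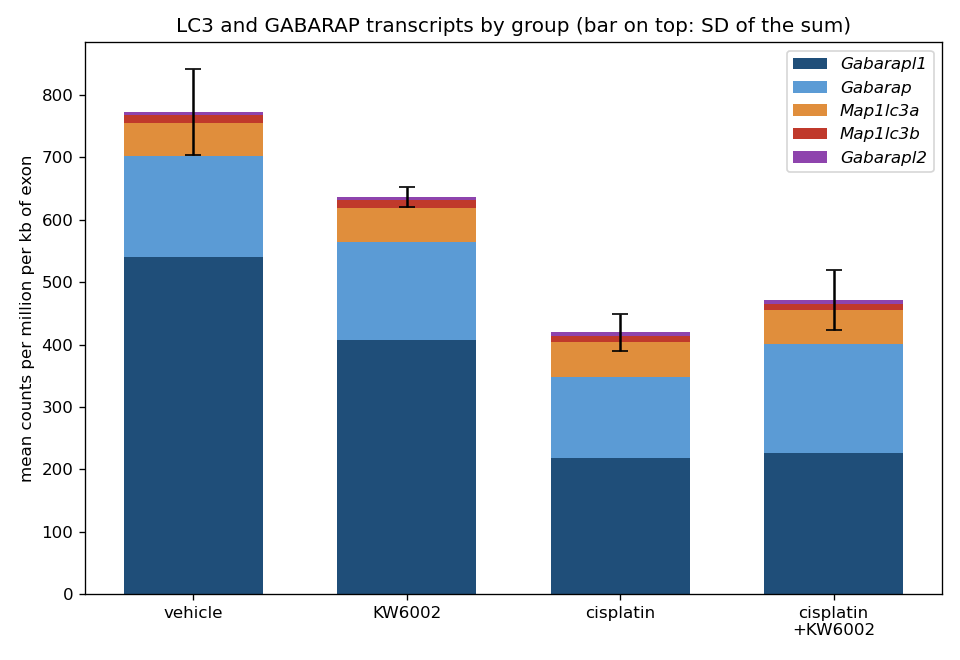
Mean CPM per kb of exon of the 5 LC3 and GABARAP genes, stacked by group (n = 5 vehicle, 6 KW6002, 5 cisplatin and 6 co-treated kidneys), with the SD of the sum. The Gabarapl1 block is 540.0 CPM per kb with vehicle, 407 with KW6002, 217 with cisplatin and 226 with co-treatment.

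Sqstm1 (ENSMUSG00000015837, chr11:50199366-50210827, minus strand) encodes p62, the receptor that links ubiquitinated cargo to LC3 and is itself degraded with it. It measured 609, 566, 516, 597 and 593 CPM with vehicle and 517, 479.9, 546, 534.1 and 551 CPM with cisplatin. These groups overlapped, and the difference was -0.13 on the log2 scale (SE 0.07, 95% interval -0.27 to 0.003, adjusted p = 0.0752, or -0.18 and 0.0708 within the 500s). It was 0.09 when scaled by library size alone (adjusted p = 0.259) and -0.17 without vehicle replicate 3 (adjusted p = 0.0275). Sqstm1 in KW6002 kidneys ran from 516 to 624 CPM with a median of 572 CPM. In co-treated kidneys it ran from 621 to 779 CPM with a median of 686 CPM, and all 6 lay above every cisplatin and every vehicle kidney. KW6002 replicate 2 (624.0 CPM) lay above co-treated replicate 6 (620.6 CPM). The Sqstm1 log2 fold change of co-treated kidneys against cisplatin was 0.40 (SE 0.06, adjusted p = 1.2e-05, or 0.40 and 3.1e-05 within the 500s), and against vehicle 0.27 (SE 0.06, adjusted p = 0.000827), or 0.22 within the 500s (adjusted p = 0.0401). The effect of KW6002 on Sqstm1 differed between mice with and without cisplatin, by 0.41 on the log2 scale (SE 0.09, adjusted p = 0.000671, or 0.51 and 0.00222 within the 500s). Mrnip, on the opposite strand, shares 17.3% of the Sqstm1 exon bases.

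Tfeb (ENSMUSG00000023990, chr17:47737030-47792419, plus strand) encodes the transcription factor described above. It measured 25.8, 22.1, 24.2, 23.6 and 25.9 CPM with vehicle and 23.4, 25.8, 23.2, 25.3 and 22.8 CPM with cisplatin. The groups overlapped, and differed by -0.01 on the log2 scale (SE 0.06, 95% interval -0.14 to 0.12, adjusted p = 0.875), by -0.04 within the 500s (adjusted p = 0.697), or by 0.20 when scaled by library size alone (adjusted p = 0.00554), about the shift of all genes. Co-treated kidneys ran from 20.8 to 24.1 CPM with a median of 21.5 CPM, and differed from cisplatin kidneys by -0.12 on the log2 scale (SE 0.06, 95% interval -0.24 to 0.0072, adjusted p = 0.102), which was -0.15 without co-treated replicate 6 (adjusted p = 0.0485), -0.15 with a replicate block (adjusted p = 0.0314) and -0.18 when scaled by library size alone (adjusted p = 0.0139). Of its relatives, Tfe3 rose with cisplatin (0.35, SE 0.06, adjusted p = 6.6e-06) without overlap and Mitf fell (-0.27, SE 0.09, adjusted p = 0.00944) with overlap, and these 2 did not pass between co-treated and cisplatin kidneys (-0.02, adjusted p = 0.815, and 0.05, adjusted p = 0.657). Tfec, another relative, fell with cisplatin (-0.92, SE 0.11, adjusted p = 8.4e-08) without overlap, and was higher in co-treated than in cisplatin kidneys (0.36, SE 0.10, adjusted p = 0.00534) with overlap.

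Lamp1 (ENSMUSG00000031447, chr8:13159161-13175338, plus strand) encodes an abundant protein of the lysosomal membrane. It measured 1207, 1185, 1126, 1180.1 and 1159 CPM with vehicle and 1124, 1220.3, 1153, 1182 and 1170.2 CPM with cisplatin. Both groups covered nearly the same range, and differed by -0.0017 on the log2 scale (95% interval -0.09 to 0.09, adjusted p = 0.976), by -0.0044 within the 500s (adjusted p = 0.959), or by 0.21 when scaled by library size alone (adjusted p = 0.000104), again about the shift of all genes. Co-treated kidneys held 1069 to 1213 CPM with a median of 1094 CPM, overlapping the cisplatin kidneys, and differed from them by -0.07 (SE 0.04, adjusted p = 0.144), or by -0.10 without co-treated replicate 3 (adjusted p = 0.0429), -0.08 in DESeq2 (adjusted p = 0.0215) and -0.13 when scaled by library size alone (adjusted p = 0.00802). The opposite-strand gene Grtp1 shares 9.31% of its exon bases. Its relative Lamp2 fell with cisplatin (-0.46, SE 0.04, adjusted p = 3.0e-09) and was higher in co-treated than in cisplatin kidneys (0.17, SE 0.04, adjusted p = 0.00144), without overlap in either case.

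Ctsd (ENSMUSG00000007891, chr7:142375911-142388038, minus strand) encodes cathepsin D, an aspartic protease of the lysosome. It measured 491, 478, 361, 379 and 354 CPM with vehicle and 1236, 1308, 1209, 1163 and 963 CPM with cisplatin. Every cisplatin kidney lay above every vehicle kidney, and cisplatin replicate 5 lay below the other 4. The log2 fold change was 1.51 (SE 0.10, adjusted p = 2.8e-12), and 1.68 within the 500s (adjusted p = 5.6e-10). Co-treated kidneys ran from 693 to 796 CPM with a median of 759 CPM, above all vehicle and below all cisplatin kidneys. Against cisplatin the log2 fold change was -0.65 (SE 0.09, adjusted p = 2.1e-06, or -0.65 and 6.3e-07 within the 500s), and the KW6002 effect with cisplatin differed from that without by -0.50 on the log2 scale (SE 0.13, adjusted p = 0.003, or -0.61 and 0.00169 within the 500s). The annotation used here places a same-strand gene, Gm49369, over 34.4% of the Ctsd exon bases, and Gm49369 has no entry in the count table. How reads in the shared bases were counted was not tested.

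Marker levels and Ctsd went together in some kidneys and not in others. Cisplatin replicate 5, with the least Ctsd among cisplatin kidneys, also had the least of the injury genes (1288 CPM) and the most of the proximal tubule markers (3835 CPM). Cisplatin replicate 2 had the most Ctsd (1308 CPM). Its proximal tubule markers (2831 CPM) lay above those of replicates 1, 3 and 4, and its injury genes (2253 CPM) below those of replicates 1 and 3. The 9 macrophage markers (most abundant Lyz2) summed to 512, 479, 231, 211 and 218 CPM in the vehicle kidneys, and the first 2 of these, mice of the 300s, also held the most Ctsd of their group. With cisplatin the macrophage sum was 319, 276, 280.0, 279 and 395 CPM, highest in replicate 5, the kidney with the least Ctsd of that group, and co-treated kidneys ran from 159 to 263 CPM with a median of 197 CPM. Of these markers, 1 rose with cisplatin (Cd68, by 1.68 on the log2 scale, SE 0.45, adjusted p = 0.00209) and 3 fell (Adgre1, Csf1r and Ptprc), while with co-treatment against cisplatin 1 was lower (Cd68, -2.14, SE 0.43, adjusted p = 0.000207) and 1 higher (Csf1r, 0.23, SE 0.09, adjusted p = 0.0326), all named after their values were seen. Within the 500s, which leaves out the 2 vehicle kidneys highest in these markers, 4 were higher with cisplatin (Cd68, C1qa, C1qb and C1qc) and 2 lower (Csf1r and Ptprc), and 1 was higher and 6 were lower with co-treatment against cisplatin. The macrophage calls thus differ between the fits. Their part in the Ctsd difference was not tested. The 6 fat markers (most abundant Cfd) summed to 444, 800.0, 130.5, 118 and 54.5 CPM with vehicle, highest in the same 2 kidneys as the macrophage sum, and 209.9, 259.5, 435, 440.1 and 317 CPM with cisplatin, and to 6.56 to 266 CPM with co-treatment, with 1 of 6 lower with cisplatin (Retn) and 4 lower with co-treatment against cisplatin (Adipoq, Plin1, Cidec and Lep). Within the 500s no fat marker was lower with cisplatin and 3 were higher (Cidec, Cfd and Lep), and 5 were lower with co-treatment against cisplatin. The 5 neutrophil markers (most abundant S100a9) summed to at most 9.94 CPM in a vehicle kidney and 6.02 CPM in a cisplatin kidney, and the muscle markers (most abundant Mylpf) to at most 2.13 and 2.58 CPM, with Mylpf, the 1 muscle gene tested, higher with cisplatin (0.74, SE 0.20, adjusted p = 0.00264) but not within the 500s (0.39, adjusted p = 0.146).

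**Figure D3:**
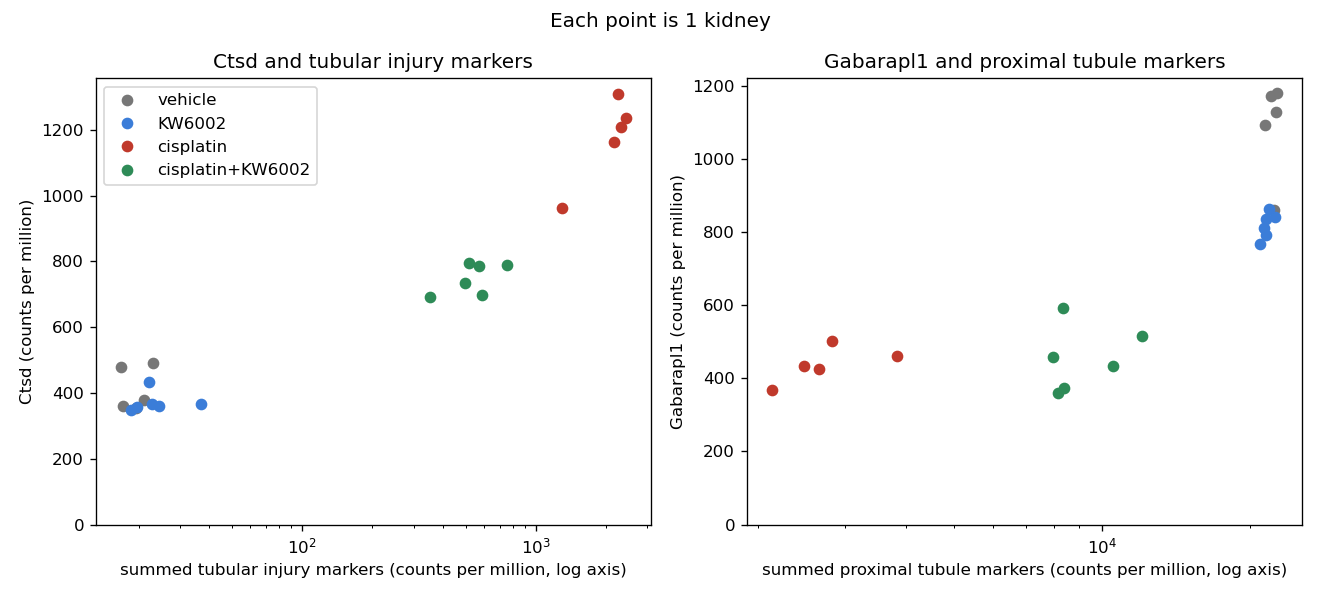
Ctsd against the summed tubular injury markers, and Gabarapl1 against the summed proximal tubule markers, 1 point per kidney, in CPM with a log x axis, pairings chosen after the values were seen. Co-treated kidneys lie between the cisplatin and vehicle kidneys for Ctsd (693 to 796 CPM) and for both marker sums, and at the cisplatin level for Gabarapl1 (359 to 591 CPM).

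Co-treatment against cisplatin alone asks what KW6002, begun before the first cisplatin dose, changes in cisplatin-treated mice. Of the 10 members 1 was higher (Sqstm1), against 28.6% of all genes tested, and 3 were lower (Ulk1, Atg5 and Ctsd), against 27.2%. The median log2 fold change was -0.06 over the members and 0.005 over all genes. Scaled by library size alone, 1 member was higher, against 23.9%, and 5 were lower (with Tfeb and Lamp1 added), against 31.7%. This comparison shares its cisplatin kidneys with the comparison of cisplatin with vehicle, so the values of both stand side by side and are not independent. Becn1, Atg7, Map1lc3b, Gabarapl1, Tfeb and Lamp1 did not pass, with 95% intervals on the log2 scale of -0.02 to 0.14, -0.15 to 0.06, -0.19 to 0.13, -0.17 to 0.28, -0.24 to 0.0072 and -0.16 to 0.01.

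**Figure D4:**
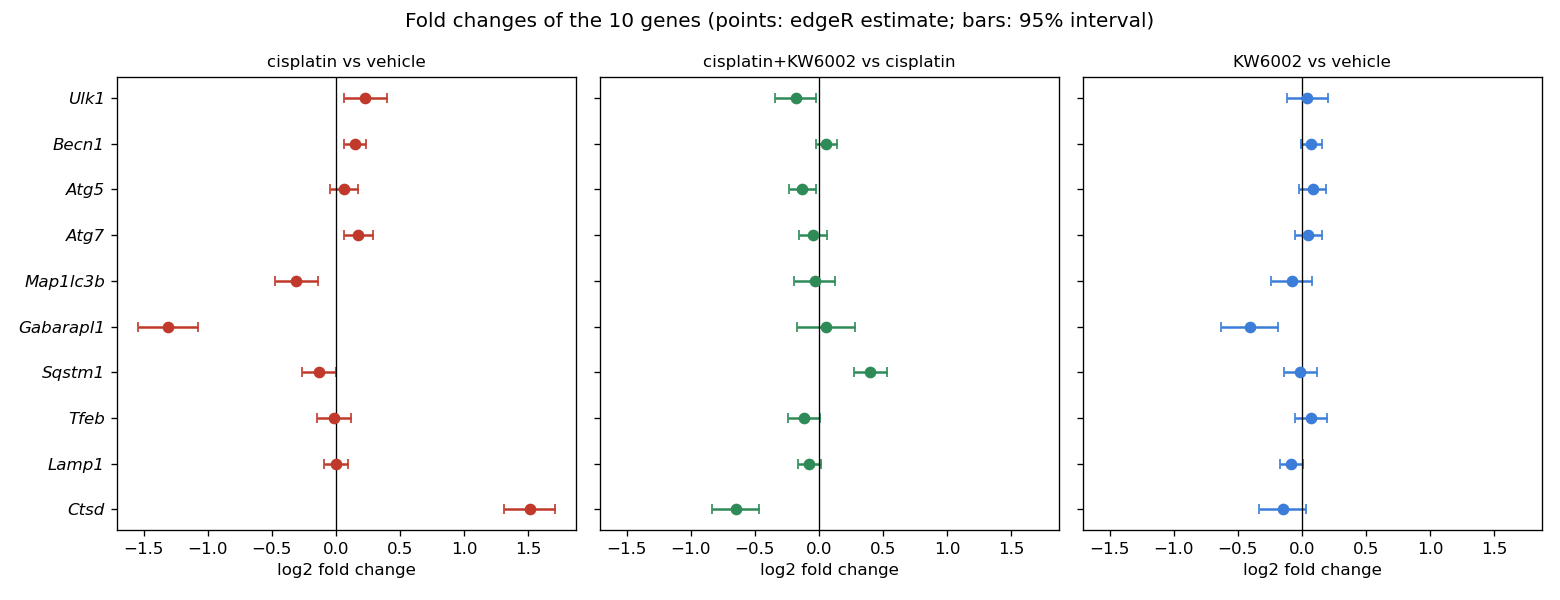
Log2 fold changes of the 10 genes in 3 comparisons, with 95% intervals from the edgeR fit. Ctsd is at 1.51 with cisplatin and -0.65 with co-treatment against cisplatin, and Gabarapl1 at -1.31 and 0.05.

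KW6002 against vehicle asks what the antagonist does without cisplatin. Of the 10 members 0 passed in edgeR, against 0.0175% of all genes higher and 0% lower, and 1 had an unadjusted p below 0.05. Over all genes tested 3 passed, 1930 had an unadjusted p below 0.05 and 102 passed in DESeq2. Gabarapl1 differed by -0.41 on the log2 scale (SE 0.11, adjusted p = 0.161, or -0.43 and 0.368 within the 500s), and in DESeq2, where 1 member passed, -0.40 (adjusted p = 0.0435). Without vehicle replicate 3 it was -0.48 (adjusted p = 0.0485). Against vehicle, co-treated kidneys had 4 members higher (Becn1, Atg7, Sqstm1 and Ctsd), against 29.8% of all genes, and 2 lower (Map1lc3b and Gabarapl1), against 29.9%. Scaled by library size alone, 5 were higher (with Ulk1 added), against 43.2%, and 2 lower, against 20.6%. Their log2 fold changes were 0.21 for Becn1 (SE 0.04, adjusted p = 8.6e-05, within the 500s 0.19 and 0.0118), 0.86 for Ctsd (SE 0.09, adjusted p = 4.0e-08, within the 500s 1.03 and 3.3e-07) and -1.26 for Gabarapl1 (SE 0.11, adjusted p = 1.5e-09, within the 500s -1.29 and 1.0e-06). Map1lc3b differed by -0.34 (SE 0.08, adjusted p = 0.000615), which did not pass within the 500s (-0.22, adjusted p = 0.0935). Scaled by library size alone, Map1lc3b was at -0.19 (adjusted p = 0.0423), Becn1 at 0.36 (adjusted p = 6.5e-09) and Sqstm1 at 0.43 (adjusted p = 5.7e-06). Atg7 differed by 0.13 (SE 0.05, adjusted p = 0.0376, within the 500s 0.22 and 0.0159), or by 0.28 when scaled by library size alone (adjusted p = 0.000112). Atg7 did not pass without vehicle replicate 4 (0.10, adjusted p = 0.108) or 5 (0.11, adjusted p = 0.1002), or without co-treated replicate 3, 4, 5 or 6 (adjusted p 0.052 to 0.0829). Nor did it pass with no filter on low counts (0.14, adjusted p = 0.0711), with at least 10 counts in every library (0.12, adjusted p = 0.0515), in a fit to only these groups (0.12, adjusted p = 0.0815) or with a replicate block (0.12, adjusted p = 0.0737). Tfeb differed by -0.13 on the log2 scale (SE 0.06, adjusted p = 0.0700) and did not pass, but it passed as lower with a replicate block (-0.17, adjusted p = 0.0192), with at least 10 counts in every library (-0.14, adjusted p = 0.0469) and without vehicle replicate 2, KW6002 replicate 6 or co-treated replicate 4 or 6 (adjusted p 0.032 to 0.0472), and was at 0.03 when scaled by library size alone (adjusted p = 0.729). Lamp1, at -0.08 (SE 0.04, adjusted p = 0.129), passed as lower in DESeq2 (-0.08, adjusted p = 0.0344) and without co-treated replicate 3 (-0.10, adjusted p = 0.0372), and was at 0.08 when scaled by library size alone (adjusted p = 0.0879). The KW6002 effect differed between mice with and without cisplatin in 4 members, 2 higher (Gabarapl1 and Sqstm1), against 22.8%, and 2 lower (Atg5 and Ctsd), against 19.9%. Under scaling by library size 2 were higher, against 17.8%, and 4 lower (with Ulk1 and Tfeb added), against 24%. For Gabarapl1 the difference was 0.46 on the log2 scale (SE 0.15, adjusted p = 0.0171), or 0.49 within the 500s (adjusted p = 0.0646), and for Atg5 -0.21 (SE 0.07, adjusted p = 0.0199), or -0.24 within the 500s (adjusted p = 0.0403) and -0.20 with no filter on low counts (adjusted p = 0.0785). Ulk1 (-0.22, adjusted p = 0.105) and Tfeb (-0.19, adjusted p = 0.0845) did not pass for this difference, but Ulk1 did without KW6002 replicate 1 (-0.27, adjusted p = 0.0444) and Tfeb without co-treated replicate 6 (-0.22, adjusted p = 0.0458).

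Further genes of the pathway were taken from 13 lists with 176 genes, all of which were tested. With cisplatin 54 were higher (30.7%, against 34.6% of all genes tested) and 84 lower (47.7%, against 35.9%), at a median of -0.11 (-0.01 over all genes). With scaling by library size alone these were 81 (against 47.6% of all genes) and 58 (against 24.8%). Later pairs in brackets use this scaling and stand against its shares of all genes. Within the 500s they were 48 (against 31.4%) and 80 (against 31.7%), with 120 genes past the test in the same direction there and in all mice. Between co-treated and cisplatin kidneys 73 were higher (41.5%, against 28.6% of all genes) and 52 lower (29.5%, against 27.2%), at a median of 0.04 (0.005 over all genes). Scaled by library size alone, these were 56 (against 23.9% of all genes) and 61 (against 31.7%). The genes of these 13 lists that are named in this report and passed with cisplatin also passed, in the same direction, within the 500s, except Foxo3 (0.0069, adjusted p = 0.962), Atg14 (0.12, adjusted p = 0.362) and Nrbf2 (0.19, adjusted p = 0.235). Ubiquitous subunits of the V-ATPase, the pump that acidifies lysosomes, were mostly lower with cisplatin, 13 of 16 lower and 2 higher (8 and 3), among them Atp6v0c (log2 fold change -0.77, SE 0.08, adjusted p = 9.9e-09), and mostly higher with co-treatment against cisplatin, 10 higher and 3 lower (8 and 4). Atp6v0a1, a membrane subunit, went the other way, rising with cisplatin (1.06, SE 0.08, adjusted p = 1.3e-10) and falling with co-treatment against cisplatin (-0.39, SE 0.08, adjusted p = 0.000211). Past the test were also Atp6v0e (0.17, SE 0.05, adjusted p = 0.00233) and Atp6v1e1 (-0.61, SE 0.05, adjusted p = 1.3e-10) with cisplatin, and Atp6v0c (0.50, SE 0.08, adjusted p = 8.0e-06), Atp6v1c1 (0.45, SE 0.05, adjusted p = 6.8e-08) and Atp6v1a (-0.24, SE 0.05, adjusted p = 0.000785) with co-treatment against cisplatin. The lysosomal membrane proteins split 8 higher and 7 lower of 18 with cisplatin (10 and 6) and 7 higher and 7 lower with co-treatment against cisplatin (5 and 9), with Scarb2, the receptor that carries glucocerebrosidase to lysosomes, at 1.56 with cisplatin (SE 0.05, adjusted p = 8.9e-17) and -1.11 with co-treatment (SE 0.05, adjusted p = 2.4e-13). Beside Scarb2 and Lamp2, this list had Laptm4b (0.67, SE 0.08, adjusted p = 1.2e-07) and Tmem175 (-0.85, SE 0.07, adjusted p = 1.3e-10) with cisplatin and Tmem192 (0.62, SE 0.06, adjusted p = 4.8e-08), Tmem175 (0.45, SE 0.06, adjusted p = 3.3e-06) and Slc17a5 (-0.74, SE 0.06, adjusted p = 5.9e-10) with co-treatment against cisplatin.

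List counts in this paragraph stand against 34.6% of all genes higher and 35.9% lower with cisplatin. For co-treatment against cisplatin the shares of all genes were 28.6% higher and 27.2% lower. Lysosomal proteases other than Ctsd had 5 higher and 5 lower of 14 with cisplatin (8 and 3, and within the 500s 7 and 5). With co-treatment 4 were higher and 5 lower (3 and 6). Ctsa was at -0.72 (SE 0.06, adjusted p = 6.1e-10) and Ctsb at 0.30 (SE 0.09, adjusted p = 0.00486) with cisplatin, beside Ctsc (0.59, SE 0.14, adjusted p = 0.000513) and Ctsh (-0.63, SE 0.05, adjusted p = 3.3e-10). Ctsk, a gene of low level named after its values were seen, had the largest change of the list, 1.73 (SE 0.22, adjusted p = 3.6e-07) and then -1.27 (SE 0.21, adjusted p = 1.7e-05) with co-treatment against cisplatin, where Lgmn (0.68, SE 0.08, adjusted p = 4.2e-07), Ctsa (0.59, SE 0.06, adjusted p = 3.2e-08), Ctso (-0.30, SE 0.06, adjusted p = 0.00015) and Ctsb (-0.25, SE 0.09, adjusted p = 0.0173) also passed. Of the 32 other lysosomal hydrolases and activators 10 were higher and 17 lower (14 and 14), then 13 higher and 12 lower with co-treatment (13 and 14), and the sialidase Neu1 fell (-1.25, SE 0.07, adjusted p = 2.1e-13) and was higher with co-treatment against cisplatin (0.72, SE 0.07, adjusted p = 4.9e-09). Of the same list, Gla (0.62, SE 0.09, adjusted p = 1.1e-06), Hgsnat (0.61, SE 0.05, adjusted p = 9.5e-10) and Arsb (-1.42, SE 0.07, adjusted p = 3.6e-14) passed with cisplatin, and Arsb (0.71, SE 0.07, adjusted p = 8.7e-09), Pla2g15 (-0.67, SE 0.15, adjusted p = 0.000583) and Arsa (-0.55, SE 0.07, adjusted p = 4.9e-07) with co-treatment against cisplatin. The autophagosome-lysosome fusion list had 6 higher and 5 lower of 14 (8 and 4), then 7 higher and 5 lower (6 and 6), with the small GTPase Rab7 at -0.49 (SE 0.03, adjusted p = 1.2e-11) and then 0.36 (SE 0.03, adjusted p = 3.6e-09) in the 2 comparisons, beside Vps41 (0.54, SE 0.04, adjusted p = 1.5e-11), Stx17 (0.46, SE 0.06, adjusted p = 2.3e-07) and Vps33a (-0.60, SE 0.04, adjusted p = 2.2e-11) with cisplatin and Vps33a (0.56, SE 0.04, adjusted p = 2.4e-10), Vps41 (-0.44, SE 0.04, adjusted p = 1.3e-09) and Tecpr1 (-0.31, SE 0.06, adjusted p = 0.000113) with co-treatment against cisplatin. In the ULK1 complex 3 of 4 other genes (Ulk2, Rb1cc1 and Atg13) were lower with cisplatin and none higher (1 lower and 1 higher when scaled by library size alone). Ulk2 led (-0.74, SE 0.055, adjusted p = 4.2e-11), and Rb1cc1 (-0.31, SE 0.07, adjusted p = 0.000183) and Atg13 (-0.27, SE 0.06, adjusted p = 0.000459) followed. With co-treatment against cisplatin Atg13 was higher (0.18, SE 0.06, adjusted p = 0.0152), but scaled by library size alone 0 genes of this list were higher and 0 lower.

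The conjugation machinery had 3 of 9 genes higher and 5 lower with cisplatin (4 and 3) and 3 higher and 2 lower with co-treatment (2 and 2). List counts here stand against 34.6% of all genes higher and 35.9% lower with cisplatin, and 28.6% and 27.2% with co-treatment against cisplatin. Atg4a, a protease that trims LC3 and GABARAP proteins, rose (1.69, SE 0.09, adjusted p = 6.7e-14), Atg12 rose (0.77, SE 0.05, adjusted p = 1.8e-12) and Atg10, the enzyme that couples ATG12 to ATG5, fell (-1.61, SE 0.11, adjusted p = 1.6e-11), as did Atg4d (-0.60, SE 0.07, adjusted p = 3.2e-08). With co-treatment against cisplatin these genes stood at the opposite sign, Atg4a (-0.66, SE 0.08, adjusted p = 2.9e-07), Atg12 (-0.60, SE 0.04, adjusted p = 2.9e-10), Atg10 (0.57, SE 0.11, adjusted p = 0.000133) and Atg4d (0.42, SE 0.06, adjusted p = 7.0e-06). The genes were named for large changes, and both comparisons share the cisplatin kidneys, here and in the other lists, so opposite signs are not independent results. Of the ATG9, ATG2 and WIPI list, 4 of 10 were higher and 4 lower (5 and 2), then 5 higher and 4 lower (5 and 4), with Vmp1, a membrane protein of autophagosome formation, at 1.88 (SE 0.07, adjusted p = 1.4e-15) and -1.04 (SE 0.07, adjusted p = 4.9e-11) with co-treatment against cisplatin, and with Atg9b, a gene of low level named after its values were seen, at 5.42 (SE 0.34, adjusted p = 2.5e-12) and -1.73 (SE 0.24, adjusted p = 2.3e-06). The list also had Wdr45b (0.39, SE 0.04, adjusted p = 3.0e-08), Wdr45 (-0.67, SE 0.08, adjusted p = 2.1e-07) and Wipi2 (-0.64, SE 0.05, adjusted p = 4.6e-10) with cisplatin and Atg2a (0.39, SE 0.07, adjusted p = 3.6e-05), Atg9a (0.37, SE 0.04, adjusted p = 1.4e-07) and Wipi1 (-0.50, SE 0.11, adjusted p = 0.000485) with co-treatment against cisplatin. Among regulators linked to p53 and stress 5 of 8 were higher and 1 lower, with Trp53inp1 at 3.52 (SE 0.15, adjusted p = 3.8e-15) and Ddit4, an inhibitor of mTORC1, at 3.05 (SE 0.18, adjusted p = 1.0e-12) and Dram2 (-0.45, SE 0.05, adjusted p = 7.3e-08), and 4 of 8 were lower with co-treatment against cisplatin, among them Trp53inp1 (-0.83, SE 0.13, adjusted p = 9.8e-06) and Ddit4 (-0.81, SE 0.16, adjusted p = 0.000164).

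Cargo receptors had 4 of 14 higher and 6 lower (8 and 4), then 5 higher and 2 lower with co-treatment (2 and 4). The same shares of all genes apply to the counts here, 34.6% higher and 35.9% lower with cisplatin, then 28.6% and 27.2%. The mitophagy receptor Bnip3 was at 0.93 (SE 0.11, adjusted p = 1.7e-07) with cisplatin. Past the test in this list were also Retreg1 (0.96, SE 0.12, adjusted p = 2.6e-07), Wdfy3 (-0.88, SE 0.08, adjusted p = 1.9e-09) and Stbd1 (-0.60, SE 0.12, adjusted p = 0.00013) with cisplatin, then Wdfy3 (0.75, SE 0.08, adjusted p = 4.4e-08), Phb2 (0.23, SE 0.05, adjusted p = 0.000383), Retreg1 (-0.66, SE 0.11, adjusted p = 4.1e-05) and Bnip3 (-0.53, SE 0.11, adjusted p = 0.00023) with co-treatment against cisplatin. The class III PI3-kinase complex had 2 of 7 higher and 3 lower (4 and 1, and within the 500s 0 and 2), then 3 and 3 (1 and 3), with Ambra1 at -0.51 (SE 0.05, adjusted p = 1.4e-08), Atg14 (0.27, SE 0.09, adjusted p = 0.0116) and Pik3c3 (-0.27, SE 0.06, adjusted p = 0.0005) with cisplatin, and Ambra1 (0.47, SE 0.05, adjusted p = 8.6e-08), Pik3c3 (0.18, SE 0.06, adjusted p = 0.0147), Atg14 (-0.54, SE 0.09, adjusted p = 1.8e-05) and Rubcn (-0.31, SE 0.05, adjusted p = 1.9e-05) with co-treatment against cisplatin. Nrbf2, of low level and named after its values were seen, was at 0.40 (SE 0.11, adjusted p = 0.00244) and then -0.43 (SE 0.10, adjusted p = 0.00129). The list of TFEB relatives and nutrient sensing had 5 of 27 higher and 14 lower (9 and 11, and within the 500s 2 and 14), with Fnip2 at -1.002 (SE 0.10, adjusted p = 3.5e-09) and Foxo3 (0.49, SE 0.20, adjusted p = 0.0367), and 14 higher and 5 lower with co-treatment against cisplatin (10 and 5), among them Fnip2 (0.60, SE 0.09, adjusted p = 9.2e-06), Tsc2 (0.42, SE 0.04, adjusted p = 1.5e-09), Lamtor5 (-0.54, SE 0.09, adjusted p = 4.9e-05) and Mtor (-0.28, SE 0.10, adjusted p = 0.0198) and, of low level and named after its values were seen, Rragb (0.61, SE 0.15, adjusted p = 0.00125).

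**Figure D5:**
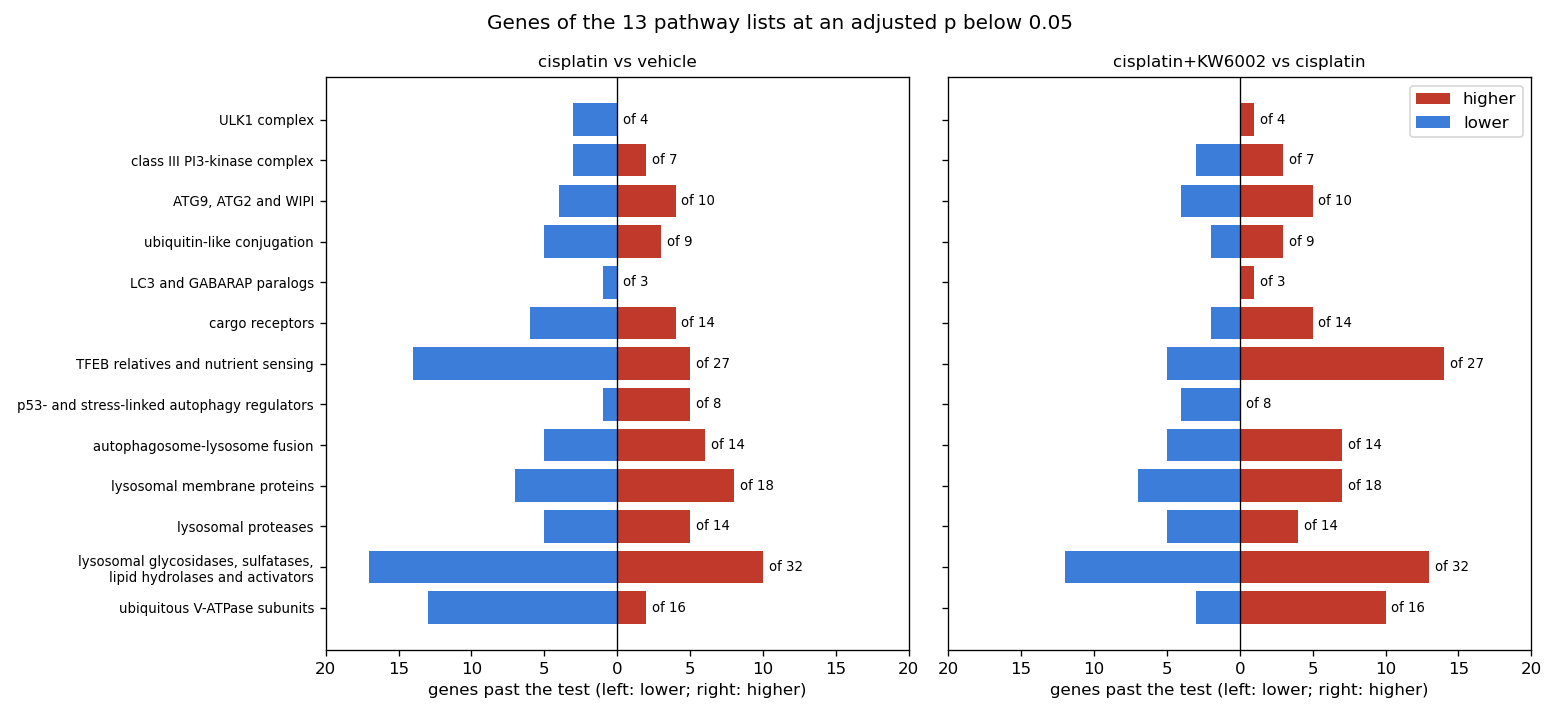
Number of genes of each of the 13 pathway lists that passed the test, higher to the right and lower to the left, for cisplatin against vehicle and co-treatment against cisplatin. The ubiquitous V-ATPase subunits have 13 of 16 lower in the first, against 35.9% of all genes, and 10 of 16 higher in the second, against 28.6%.

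The genes whose log2 CPM followed each of 4 members most closely over the 22 libraries were found by Pearson correlation, as a description, since the 4 groups differ in level and the libraries of a group share a treatment. For Ctsd they were Enc1 (r = 0.990), Pqlc3 (r = 0.990) and Arl4c (r = 0.988), for Gabarapl1 Dnajc28 (r = 0.969), Tmem86a (r = 0.959) and Itpr2 (r = 0.957), for Sqstm1 Grk6 (r = 0.886), Meaf6 (r = 0.879) and Eif3c (r = 0.879), and for Tfeb 2310022B05Rik (r = 0.789), Hoxd10 (r = 0.780) and Gm48265 (r = 0.778), each over n = 22 libraries.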

How the data were processed

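Kidney RNA of 22 mice was sequenced as single 50-base reads from stranded mRNA libraries. The authors mapped reads to mm10 with STAR, kept unique alignments and counted them per Ensembl gene with HTSeq-count 0.6.1p1 in its union mode. Raw counts were deposited, with whether strand was used not stated. The members and lists were chosen with earlier results of these data known. edgeR 4.0.16 (R 4.3.3) kept genes by its filter on low counts (17131 of 32858), scaled by TMM and fitted a quasi-likelihood model with 4 groups, with p-values adjusted over all genes tested by Benjamini-Hochberg (two-sided tests). Alternatives were DESeq2 1.42.0, relative log expression factors, scaling by library size alone, other filters and fits to the groups compared. Others were the replicate block, the number series as covariate, mice of the 500s alone, and leaving out each library. Named genes were the members and, per pathway list and direction, up to 2 genes with the largest changes past the test at an average log2 CPM of at least 3, plus the LC3 and GABARAP paralogs, Tfe3, Mitf and Lamp2. Genes of the lists below that level with larger changes than these (Atg9b, Ctsk, Nrbf2 and Rragb) and single marker genes were named after their values were seen. For 4 members the 3 genes most correlated with each were added. Promoters came from RefSeq, and lengths from the union of annotated exons. Columns without a name held no values and were left out.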

Additional observations from a re-analysis of the deposited data

Results flagged for a closer look

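In 5 of 40 groups of samples checked, 1 sample stood far from the rest, by its gap to the nearest other sample as a share of the range of the group. Chance gives this in about 1 in 20 groups. Ulk1 was low in cisplatin replicate 5 (share 0.765), Atg7 in KW6002 replicate 5 (0.660) and Gabarapl1 in vehicle replicate 3 (0.728). Lamp1 was high in co-treated replicate 3 (0.741) and Ctsd in KW6002 replicate 1 (0.767), the KW6002 kidney with the highest macrophage (567 CPM) and fat (366 CPM) marker sums, whose part was not tested.

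The effect of KW6002 differed between mice with and without cisplatin, by the test of the difference itself, for Atg5 (-0.21 on the log2 scale), Gabarapl1 (0.46), Sqstm1 (0.41) and Ctsd (-0.50). Gabarapl1 did not pass within the 500s (adjusted p = 0.0646), nor Atg5 with no filter on low counts (adjusted p = 0.0785).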

How the results depend on the processing

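Of the fold changes of the 10 members under all alternatives, 1422 kept their direction and side of the threshold, 44 no longer passed, 23 newly passed and 51 turned direction (49 of them past the test in neither fit), and the cause was not tested. Those that turned follow, on the log2 scale.

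With cisplatin against vehicle, scaling by library size alone gave Tfeb 0.20, Lamp1 0.21 (both past the test) and Sqstm1 0.086, and Lamp1 was at 0.0069 in DESeq2 and with relative log expression factors, 0.0017 with at least 10 counts and 0.0048 in the fit to only these groups. Leaving out each library gave Tfeb -0.0463 to 0.0102 and Lamp1 -0.0173 to 0.0134. For co-treatment against cisplatin, library size gave Becn1 -0.001 and Gabarapl1 -0.0052, and leaving out libraries Map1lc3b -0.10 to 0.0061 and Gabarapl1 -0.0342 to 0.114. For KW6002 against vehicle, Sqstm1 was at 0.0003 by library size and 0.016 with the replicate block, Map1lc3b at 0.0627 within the 500s, and leaving out libraries gave Ulk1 -0.0039 to 0.0852 and Sqstm1 -0.0491 to 0.0148. For co-treatment against vehicle, library size gave Atg5 0.0907, Tfeb 0.0254 and Lamp1 0.081, and Ulk1 was at -0.0869 with the number series as a covariate and -0.0604 within the 500s. For the difference of KW6002 effects, Lamp1 was at -0.007 in DESeq2 and with relative log expression factors, -0.0639 by library size, -0.0063 with at least 10 counts and -0.0044 within the 500s, Map1lc3b at -0.0233 by library size and -0.0906 within the 500s, and Becn1 at 0.0008 with no filter. Leaving out libraries gave there Becn1 -0.037 to 0.0066, Map1lc3b -0.0218 to 0.086 and Lamp1 -0.0185 to 0.0235.

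For KW6002 against vehicle, DESeq2 gave 1 member and 102 genes past the test, the fit to only the groups compared 0 genes (edgeR, where the fit to all groups gave 3, with 1930 at an unadjusted p below 0.05), the number series as a covariate 40 genes and mice of the 500s alone 8 genes. Leaving out each library gave 0 to 1 members and 1 to 64 genes there, and 2 to 5 members for co-treatment against cisplatin, against 51.4% to 56.1% of all genes tested in the same fits, where no filter on low counts gave 2, against 28.3%. Cisplatin against vehicle gave 3 members within the 500s, against 63.1%.

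With replicate numbers as the replicate block, KW6002 against vehicle gave 1 gene, and members past the test numbered 6 for cisplatin against vehicle, against 70.6% of all genes, and 4 for co-treatment against cisplatin, against 54.8%. Deviations from the group mean correlated by -0.175 to 0.405 (median 0.0085, above 0.1 in 7 of 31) between libraries of different groups with the same replicate number, above 0.1 in 4 of 5 pairs of vehicle with KW6002, the groups that span both number series, and in 3 of the 26 other pairs.

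Limits: vehicle mice of the 500s number 2, and all cisplatin-treated mice are in the 500s. Some exon bases of Becn1, Gabarapl1, Sqstm1, Lamp1, Map1lc3b and Ctsd are shared with other genes.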
